A study of Glycine max with 12 samples.

Results

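PDR12 is a name for a transporter of the plant ABC superfamily, and 7 of the 52660 soybean loci in the count table carry it in the gene lists that accompany the study. The lists give loci with altered expression in GmNAC81-3 V3 leaves relative to BR16 V3 leaves, grouped by terms such as senescence, ethylene, salicylic acid and drought, so the members were chosen on measured values of that contrast. The loci are Glyma.03G168000 and Glyma.03G168200 on chromosome 3, Glyma.07G033500 on chromosome 7, Glyma.13G361900 and Glyma.13G362000 on chromosome 13, Glyma.14G127800 on chromosome 14 and Glyma.15G012000 on chromosome 15, by their IDs in annotation Wm82.a2.v1. All 7 are on lists of senescence-related terms, which were drawn from that contrast alone. All but Glyma.13G362000 and Glyma.14G127800 are also on the drought list, which the study's text describes as limited to loci altered in that contrast only, a limit that would involve the BR16 R6 libraries. All 7 passed the filter on low counts, which left 39443 loci for testing.

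PDR proteins (pleiotropic drug resistance) are full-size transporters of the ABCG subfamily, with nucleotide-binding and membrane-spanning parts, and they move small molecules across membranes at the expense of ATP. In Arabidopsis, PDR12, also called ABCG40, sits in the plasma membrane and takes up abscisic acid (ABA), the hormone that closes stomata and rises in drying and ageing leaves. The Arabidopsis transporter has further been connected with tolerance to lead and with pathogen responses. The soybean loci bear the name by similarity, and nothing in these data shows what they transport.

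RNA of soybean leaves was sequenced in 12 libraries, 3 from each of 4 groups grown under normal conditions. BR16, the wild-type cultivar, and GmNAC81-3, a single transgenic line that overexpresses the NAC transcription factor GmNAC81 from the 35S promoter, were sampled at stage V3, 20 days after germination, and at stage R6, 80 days after germination. Leaves came from 3 plants per treatment, but the labels do not tie a replicate to a plant, so p-values measure the spread between these libraries. V3 and R6 libraries formed separate sequencing sets, so an effect of stage and an effect of the set cannot be told apart.

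Library totals ran from 42797825 to 77952663 counts. Levels are given as CPM, counts as a rate per library, on library sizes scaled with TMM (trimmed mean of M-values), which were smallest in GmNAC81-3 V3, at 24610928 to 30282246 counts, and reached 112620899 in BR16 R6. GmNAC81 itself (Glyma.12G022700) was at 5.76 ± 1.93 CPM in BR16 V3, 38.0 ± 24.9 in BR16 R6, 99.6 ± 76.7 in GmNAC81-3 V3 and 56.4 ± 11.5 in GmNAC81-3 R6 (SD, n = 3). The leaf label was checked with 4 loci for rubisco activase, the chaperone of the carbon-fixing enzyme, whose group means ran from 265 to 8275 CPM at V3 and were lower at R6, from 39.0 to 321 CPM. In bulk leaf RNA, fewer cells of a type and less RNA per cell cannot be told apart.

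The PDR12 loci did not move together between V3 and R6. Calls required an adjusted p under 0.05 in edgeR's quasi-likelihood test (Benjamini-Hochberg over every tested locus) together with a log2 fold change above 1 or below -1. Between BR16 R6 and BR16 V3, 1 member rose and 3 fell, so 4 of 7 were called, where 34.7% of all tested loci were called, 15.1% higher and 19.6% lower. Between GmNAC81-3 R6 and GmNAC81-3 V3, 2 members rose and 2 fell, beside 36.5% of all loci called, 16.5% higher and 20.1% lower. V3 and R6 values did not overlap for 5 of 7 members in BR16 and 5 of 7 in GmNAC81-3, beside 60.2% and 52.2% of all tested loci. Both comparisons share V3 libraries with the contrast that chose the members, and for the 5 drought-list loci the described limit of that list would involve the BR16 comparison itself, so neither is independent of the choice. The median log2 fold change over the members was -2.46 in BR16 and -0.59 in GmNAC81-3, beside -0.01 and 0.03 over all loci tested. Both medians are the values of Glyma.03G168000, which edgeR called in neither genotype. Its BR16 value was 0.064 without BR16 V3 replicate 2, so the medians are not read as a general fall.

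**Figure D1:**
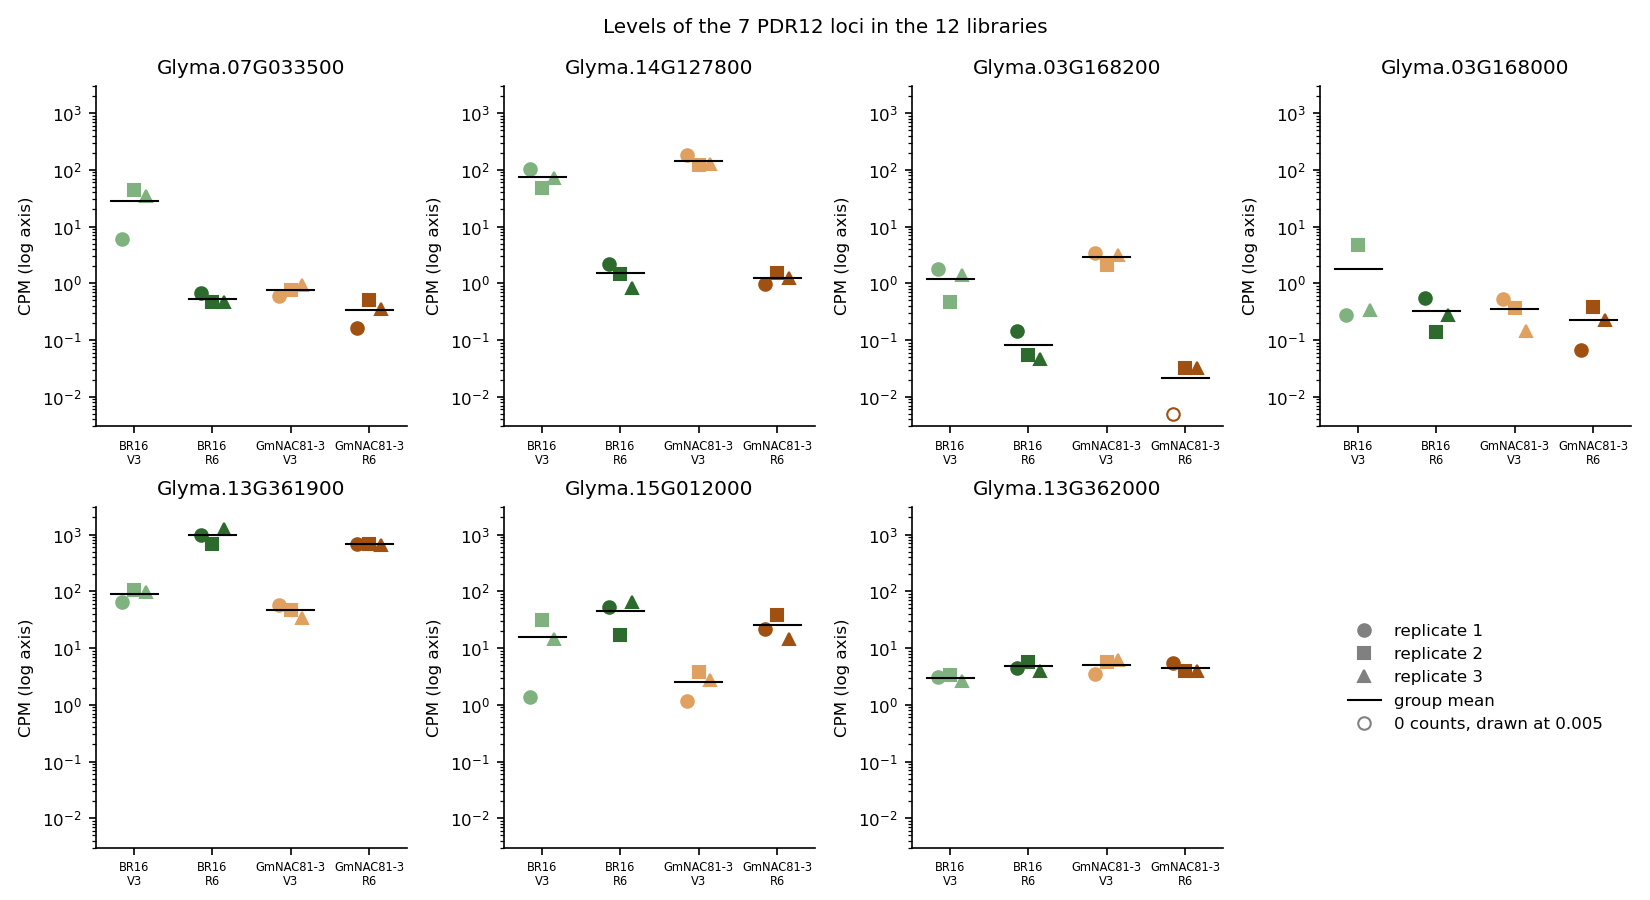
Level of each PDR12 locus (CPM, log axis) in the 12 libraries, by group on the horizontal axis, with a marker shape for each replicate number, a line at the group mean and an open marker for 0 counts. Glyma.14G127800 and Glyma.03G168200 lie lower at R6 in both genotypes, Glyma.13G361900 lies higher at R6 in both, and Glyma.07G033500 is above 1 CPM only in BR16 V3, where it spans 5.94 to 43.7 CPM.

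Glyma.14G127800 fell at R6 in both genotypes. In BR16 V3 it was at 105, 47.7 and 70.5 CPM in replicates 1, 2 and 3, and in BR16 R6 at 2.22, 1.49 and 0.842 CPM. In GmNAC81-3 V3 it was at 179, 122 and 129 CPM, and in GmNAC81-3 R6 at 0.960, 1.52 and 1.25 CPM. Every V3 library was far above every R6 library. The log2 fold change of R6 against V3 was -5.61 (SE 0.44, edgeR adjusted p = 4.10e-06) in BR16 and -6.85 (SE 0.47, edgeR adjusted p = 1.46e-06) in GmNAC81-3.

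Glyma.03G168200 had the same direction from a low level. Its values were 1.79, 0.476 and 1.37 CPM in BR16 V3 and 0.142, 0.0545 and 0.0462 CPM in BR16 R6, which do not overlap. In GmNAC81-3 V3 it stood at 3.43, 2.11 and 3.13 CPM. The GmNAC81-3 R6 libraries held 0, 3 and 2 counts of it, which is at or below the floor of 3 counts per library. The GmNAC81-3 V3 mean lay 67.0-fold above that floor. The floor covers counting error only. The fall was called in BR16 (log2 fold change -3.81, SE 0.61, edgeR adjusted p = 0.000456) and in GmNAC81-3 (edgeR adjusted p = 2.88e-05). Without BR16 R6 replicate 1 the log2 fold change in BR16 was -4.53.

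Glyma.07G033500 was high in a single group. BR16 V3 held 5.94, 43.7 and 34.1 CPM, and even the lowest of these lay above all 9 libraries of the other groups. BR16 R6 was at 0.675, 0.477 and 0.462 CPM, GmNAC81-3 V3 at 0.594, 0.772 and 0.925 CPM, and GmNAC81-3 R6 at 0.166, 0.510 and 0.351 CPM. In BR16 the locus fell with stage by 5.69 on the log2 scale (SE 0.67, edgeR adjusted p = 5.94e-05). In GmNAC81-3 the 3 R6 libraries lay below the 3 V3 libraries, but the log2 fold change of -1.12 (SE 0.67) did not pass the test (edgeR adjusted p = 0.193). Without BR16 V3 replicate 1, the lowest of its group, this change was called (edgeR adjusted p = 0.0292, log2 fold change -1.11).

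Glyma.13G361900 rose at R6 in both genotypes. BR16 V3 libraries held 65.0, 104 and 96.8 CPM and BR16 R6 libraries 1001, 669 and 1257 CPM. GmNAC81-3 V3 libraries held 57.5, 47.1 and 34.3 CPM, and GmNAC81-3 R6 libraries 684, 687 and 654 CPM. No R6 library came near a V3 library, and the R6 libraries of GmNAC81-3 were close to each other, with a coefficient of variation of 2.69%. The log2 fold change was 3.46 in BR16 (SE 0.33, edgeR adjusted p = 1.36e-05) and 3.87 in GmNAC81-3 (SE 0.33, edgeR adjusted p = 5.90e-06).

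Glyma.15G012000 was called higher at R6 in GmNAC81-3 and was not called in BR16. In GmNAC81-3 V3 it was at 1.19, 3.74 and 2.70 CPM, and in GmNAC81-3 R6 at 22.0, 38.7 and 14.3 CPM, with no overlap. In BR16 V3 it was at 1.35, 30.7 and 14.7 CPM, a 22.7-fold range within the group, and in BR16 R6 at 52.0, 16.8 and 65.6 CPM. BR16 V3 replicate 2 lay above BR16 R6 replicate 2, so these groups overlapped. The log2 fold change was 3.30 in GmNAC81-3 (SE 0.92, edgeR adjusted p = 0.0120) and 1.52 in BR16 (SE 0.84, edgeR adjusted p = 0.165), and the difference between them, 1.78 (SE 1.19), did not pass the test (edgeR adjusted p = 0.545).

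The remaining members, 1 of each tandem pair, were not called with edgeR in either genotype. Glyma.03G168000 was at 0.273, 4.72 and 0.343 CPM in BR16 V3 and between 0.0662 and 0.542 CPM in the other 9 libraries. Its log2 fold change in BR16, -2.46 (SE 1.01, edgeR adjusted p = 0.0670), rested on BR16 V3 replicate 2, since it was 0.064 without that library (edgeR adjusted p = 0.954). It was called without BR16 V3 replicate 1 (-2.96) or without replicate 3 (-2.94), and DESeq2 called it with all libraries (-2.47, DESeq2 adjusted p = 0.0280). In GmNAC81-3 it was -0.59 (SE 1.12, edgeR adjusted p = 0.697).

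Glyma.13G362000 varied least. Its values were 3.04, 3.36 and 2.62 CPM in BR16 V3, 4.50, 5.75 and 4.004 CPM in BR16 R6, 3.43, 5.69 and 6.08 CPM in GmNAC81-3 V3 and 5.43, 3.90 and 3.90 CPM in GmNAC81-3 R6. The BR16 stages did not overlap, and their log2 fold change of 0.66 (SE 0.25, edgeR adjusted p = 0.0479) was under the fold limit. In GmNAC81-3 the stages overlapped and the log2 fold change was -0.20 (SE 0.25, edgeR adjusted p = 0.535).

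**Figure D2:**
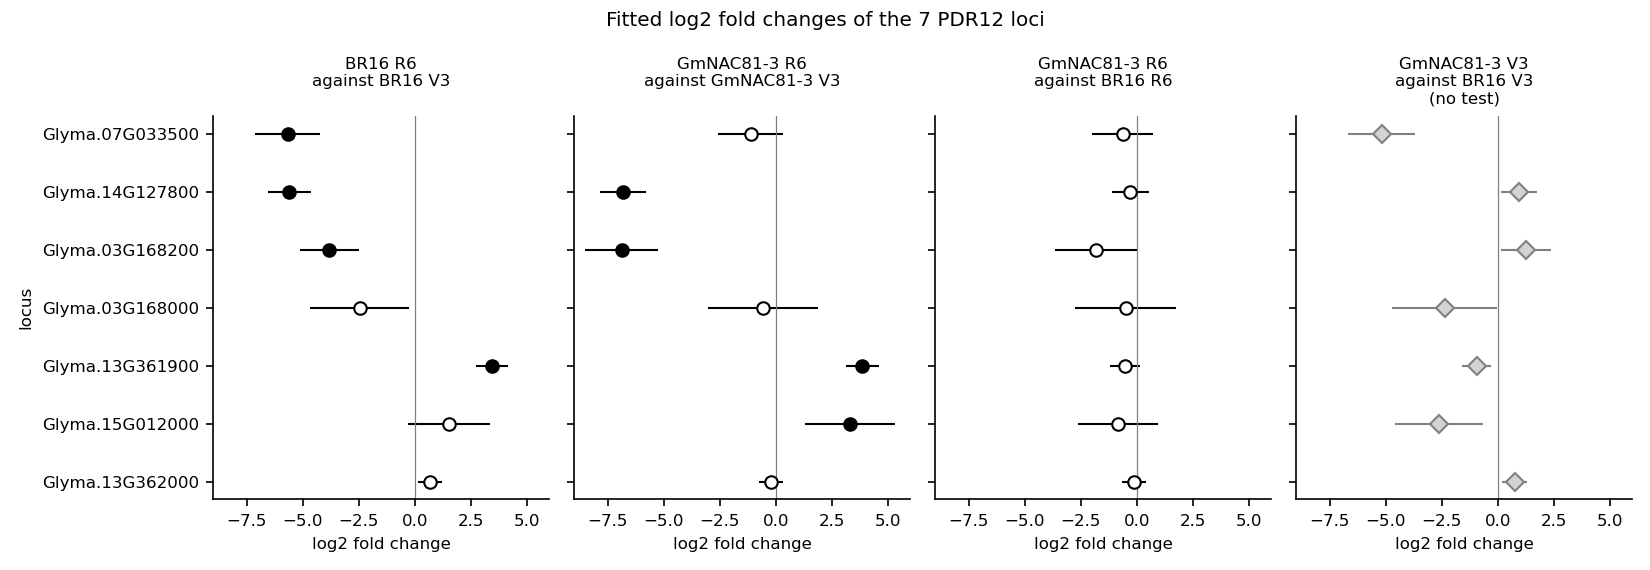
Fitted log2 fold change (horizontal axis) of each PDR12 locus (vertical axis) in 4 contrasts, with 95% intervals of the edgeR fit. Filled circles were called and open circles were not. The grey diamonds of GmNAC81-3 V3 against BR16 V3 and their intervals are no test of the loci, since that contrast chose them. Whether those intervals include 0 is therefore not read. The intervals of the R6 genotype contrast all include 0.

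At R6 the genotypes were compared by group means that hold no V3 library. The spread behind the edgeR p-values and intervals was estimated over all 12 libraries, including the V3 libraries on which the loci were chosen. The described limit of the drought list would also involve the BR16 R6 libraries. None of the 7 was called between GmNAC81-3 R6 and BR16 R6 with edgeR, none had an unadjusted p under 0.05, as 6.86% of all tested loci had, and DESeq2 also called 0. Of all tested loci, 0.0989% were called with edgeR and 0.568% with DESeq2. The log2 fold changes were below 0 for all 7 members, from -1.81 to -0.11, with a median of -0.53 beside 0.00 over all loci. These signs are not separate results, because the members come from the same libraries.

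Glyma.03G168200 was the only member whose R6 libraries did not overlap between genotypes, beside 13.7% of all tested loci. Its 3 GmNAC81-3 R6 libraries were at or under the floor of 3 counts, while the BR16 R6 libraries held 16, 4 and 4 counts. The BR16 R6 mean lay 1.88-fold above that floor, or 1.17-fold without BR16 R6 replicate 1. The fitted log2 fold change of -1.81 had a 95% interval from -3.63 to 0.019, which includes 0 (edgeR adjusted p = 0.733). For Glyma.13G361900 the log2 difference was -0.53, with a 95% interval from -1.18 to 0.12, which leaves room for a fall of more than 2-fold and for almost no change. For Glyma.14G127800 the interval ran from -1.11 to 0.53 and for Glyma.13G362000 from -0.64 to 0.43. For Glyma.07G033500 it was wider, from -1.99 to 0.74, and for Glyma.15G012000 it ran from -2.65 to 0.97. Leaving out single BR16 R6 libraries turned the sign of 3 of these differences: Glyma.03G168000 was at 0.14 and Glyma.14G127800 at 0.10 without replicate 1, and Glyma.13G362000 at 0.039 without replicate 2.

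The values at V3, on which the loci were chosen, are given as a description. Glyma.07G033500 was at 27.9 ± 19.6 CPM in BR16 V3 and at 0.764 ± 0.165 CPM in GmNAC81-3 V3 (SD, n = 3), a fitted log2 fold change of -5.19. Glyma.15G012000, at 15.6 ± 14.7 and 2.54 ± 1.28 CPM, had a log2 fold change of -2.62, and without BR16 V3 replicate 2 it was -1.67. Glyma.03G168000 had a log2 fold change of -2.36, which became 0.16 without BR16 V3 replicate 2. Glyma.13G361900 was lower in the line by 0.94 on the log2 scale, at 46.3 ± 11.6 CPM against 88.7 ± 20.9 CPM. The other members were higher in GmNAC81-3 V3, by log2 fold changes of 1.26 for Glyma.03G168200, 0.95 for Glyma.14G127800 and 0.75 for Glyma.13G362000. The V3 libraries of the genotypes did not overlap for 5 of the 7 loci, beside 24.0% of all tested loci, of which 3.44% were called, and nothing is read from these shares. On TMM-scaled sizes, the loci with the same name therefore stood on both sides, 4 lower and 3 higher. TMM factors were 0.498 to 0.657 in GmNAC81-3 V3 and 0.969 to 1.38 in BR16 V3, which raises CPM in the line relative to unscaled totals. Counts of Glyma.14G127800 were 6130, 3706 and 4311 in BR16 V3 and 5423, 3008 and 3623 in GmNAC81-3 V3. Those of Glyma.13G362000 were 178, 261 and 160, and 104, 140 and 171. For Glyma.03G168200 they were 105, 37 and 84, and 104, 52 and 88. The higher levels of Glyma.14G127800 and Glyma.13G362000 in the line rest on this scaling, and that of Glyma.03G168200 rests on it in part.

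The 3 BR16 V3 libraries differed from each other in these loci. Replicate 1 was the lowest and replicate 2 the highest for Glyma.07G033500, Glyma.15G012000, Glyma.03G168000 and Glyma.13G361900, while replicate 2 was the lowest and replicate 1 the highest for Glyma.03G168200 and Glyma.14G127800. For Glyma.15G012000, replicate 1 was 16.8-fold below the mean of the other BR16 V3 libraries, and for Glyma.07G033500 it was 6.55-fold below. For Glyma.03G168000, replicate 2 was 15.3-fold above the mean of the other libraries. In GmNAC81-3 V3 the library numbered 1 was again the lowest for Glyma.07G033500 and Glyma.15G012000, and again the highest for Glyma.03G168200 and Glyma.14G127800. For Glyma.03G168000 and Glyma.13G361900 it was the highest there, the reverse of BR16 V3. What sets these libraries apart was not tested.

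The difference between the genotypes in their stage effects shares all its V3 libraries with the choosing contrast. It equals the R6 genotype contrast minus that V3 contrast. Where the R6 difference is small, it nearly repeats the choice with the sign reversed. The shares and p-values of this paragraph are therefore a description and no independent test of the members. With edgeR, 0 of 7 members were called, beside 0.0710% of all tested loci, and 4 of 7 had an unadjusted p under 0.05, as 13.1% of all tested loci had. Glyma.07G033500 had the largest such difference among the members, 4.57 on the log2 scale (SE 0.89, edgeR adjusted p = 0.104), since its level was high in BR16 V3 alone. DESeq2 called it, as the only member, at an adjusted p of 0.000106, where DESeq2 called 2.82% of all loci it tested, and edgeR called it without BR16 V3 replicate 1 (5.05, adjusted p = 0.00735). The others with an unadjusted p under 0.05 were Glyma.03G168200 at -3.07 (SE 0.98, edgeR adjusted p = 0.234), Glyma.14G127800 at -1.24 (SE 0.52, edgeR adjusted p = 0.345) and Glyma.13G362000 at -0.86 (SE 0.35, edgeR adjusted p = 0.327). Glyma.03G168000 was at 1.88 (SE 1.49, edgeR adjusted p = 0.617). For Glyma.13G361900 the difference was 0.41, with a 95% interval from -0.52 to 1.33.

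The count table lists 16 transcript models for the 7 loci, and Glyma.13G361900 has 4 of them, with shares that changed between the stages. At R6, model 3 held 23.3 ± 0.66% of the counts of the locus in BR16 and 23.1 ± 0.50% in GmNAC81-3 (SD, n = 3). At V3 it held 33.2 to 82.8% in BR16 and 51.9 to 77.7% in GmNAC81-3, above every R6 library. In both genotypes the highest share was in replicate 1. In BR16 V3, model 1 was at 4.88, 26.2 and 24.5 CPM, whereas model 3 was at 53.8, 34.6 and 34.7 CPM, so the library with the least of model 1 had the most of model 3. In GmNAC81-3 V3 the corresponding values were 4.66, 9.18 and 6.55 CPM for model 1 and 44.6, 25.8 and 17.8 CPM for model 3.

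Fitted as separate features among 66292 transcript models, all 4 models of Glyma.13G361900 rose at R6 in both genotypes. In BR16 the log2 fold changes were 3.97, 3.93 and 4.01 for models 1, 2 and 4, and 2.45 for model 3 (SE 0.36, edgeR adjusted p = 0.000232). In GmNAC81-3 they were 4.91, 4.87 and 5.13 for models 1, 2 and 4, and 2.41 for model 3 (SE 0.36, edgeR adjusted p = 0.000244). Of the models tested, 32.5% were called in BR16 and 34.5% in GmNAC81-3. The model shares of the other loci were steadier where the counts were high: model 1 held 35.0 ± 1.61% of Glyma.14G127800 in BR16 V3 and 34.3 ± 1.42% in GmNAC81-3 V3, and in BR16 model 1 held 52.5 ± 2.32% of Glyma.15G012000 at V3 and 51.7 ± 2.26% at R6. Models of a locus share sequence, and how a read that fits several models was counted is not given in the sources used here, so model shares are not molar shares of isoforms.

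**Figure D3:**
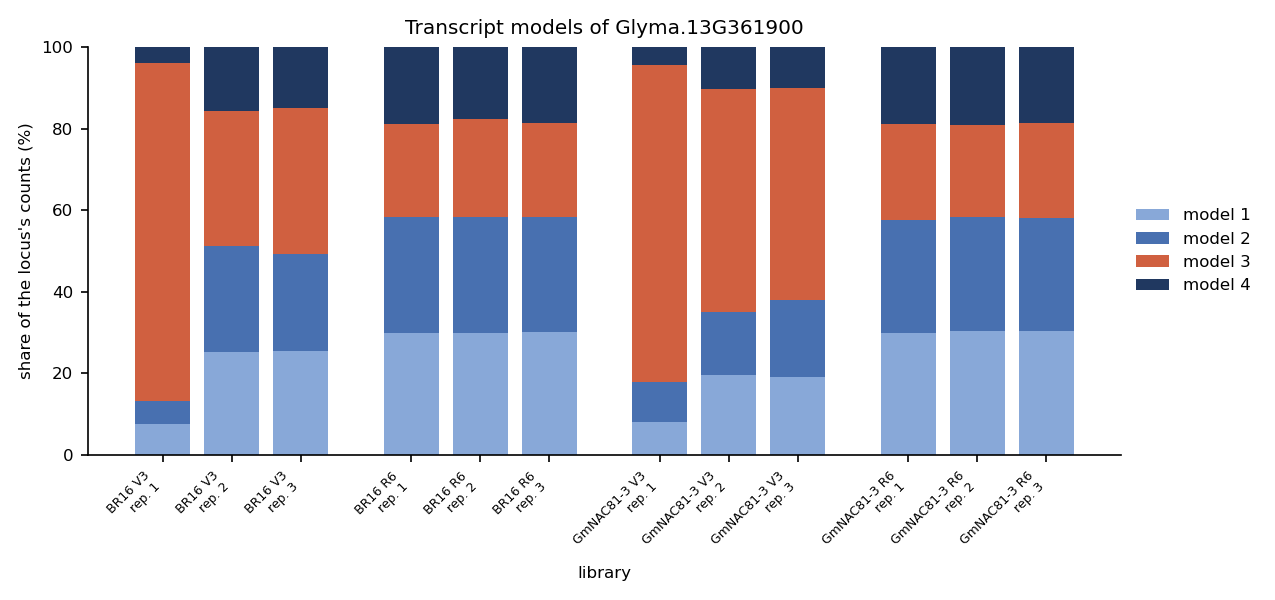
Share of the counts of Glyma.13G361900 (vertical axis, %) held by each of its 4 transcript models in each library (horizontal axis). Model 3 holds 22.6 to 24.1% in the 6 R6 libraries and 33.2 to 82.8% in the 6 V3 libraries, with the highest shares in replicate 1 of either genotype.

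The ratio of a pair of loci within a library depends on its scaling only through the prior count of 2, which matters where counts are low. Glyma.03G168200 held 4 to 16 counts in BR16 R6 and 0 to 3 in GmNAC81-3 R6, so its R6 ratios rest in part on that prior count. The R6 minus V3 shift in log2 ratio was tested for all 21 pairs of members with a two-sided exact permutation test that exchanged stages within each genotype, whose smallest possible p was 0.005 over 400 arrangements. After Benjamini-Hochberg adjustment over the 21 pairs, 17 pairs had an adjusted p under 0.05, of which 14 were at the smallest p, adjusted to 0.0075. No share over pairs of other loci was computed, so this count is not read as a trait of the members. The pairs reuse the same 7 loci, and the test uses the V3 libraries on which these were chosen. The widest shift was that of Glyma.13G361900 over Glyma.14G127800, 9.89 on the log2 scale. For Glyma.03G168200 over Glyma.14G127800 the shift was 1.60 (exact adjusted p = 0.0075). With a prior count of 0.5 it was 0.90 and did not pass (exact adjusted p = 0.0933). The 4 pairs that did not pass were Glyma.07G033500 with Glyma.03G168200 (exact adjusted p = 0.28), Glyma.07G033500 with Glyma.14G127800 (exact adjusted p = 0.0525), Glyma.03G168000 with Glyma.13G362000 (exact adjusted p = 0.188) and Glyma.15G012000 with Glyma.13G361900 (exact adjusted p = 0.215). The test averages the genotypes, and the first of these pairs shifted by -1.83 in BR16 and by 4.66 in GmNAC81-3, and the second by 0.41 in BR16 and by 5.63 in GmNAC81-3; the difference between the genotypes was not tested. The pair of Glyma.15G012000 and Glyma.13G361900 holds the members called higher at R6, and its ratio shifted by -0.93, passing the test without BR16 V3 replicate 1 (-1.48, exact adjusted p = 0.0494).

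The neighbours on chromosomes 3 and 13 parted between the stages. Glyma.13G361900 and Glyma.13G362000 follow each other in the table, and their log2 ratio was 4.40, 4.94 and 5.19 in BR16 V3 and 7.79, 6.85 and 8.28 in BR16 R6. In GmNAC81-3 it was 4.05, 3.04 and 2.49 at V3 and 6.97, 7.45 and 7.38 at R6. The shift over both genotypes was 3.43 (exact permutation p = 0.005, adjusted p = 0.0075), so that Glyma.13G361900 rose with stage while the level next to it stayed within a range of 2.62 to 6.08 CPM.

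Glyma.03G168000 and Glyma.03G168200 are separated by a single listed locus, Glyma.03G168100. Their log2 ratio was -2.58, 3.23 and -1.91 in BR16 V3 and 1.73, 0.97 and 1.99 in BR16 R6. In GmNAC81-3 it was -2.63, -2.43 and -4.19 at V3 and 1.64, 2.71 and 2.01 at R6. BR16 V3 replicate 2 was the only V3 library with a ratio above 0. The shift was 3.60 (exact permutation p = 0.02, adjusted p = 0.028), the mean of 5.21 in GmNAC81-3 and 1.98 in BR16. With a prior count of 0.5 it was 4.25 (exact adjusted p = 0.03). Reads that fit near-identical copies may have been split between neighbours, which makes the values of these pairs less certain.

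**Figure D4:**
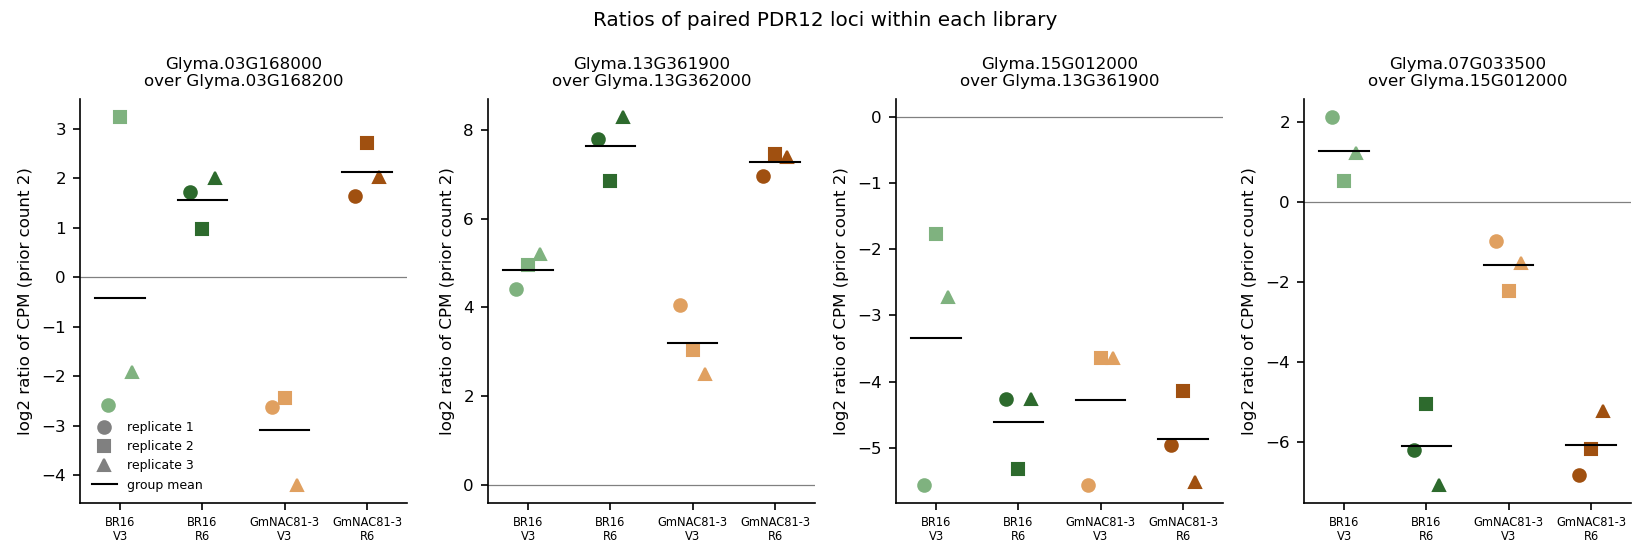
Log2 ratio of CPM (prior count 2, vertical axis) of 4 pairs of PDR12 loci in each library, by group on the horizontal axis, with a line at the group mean and a marker shape for each replicate number. For Glyma.13G361900 over Glyma.13G362000 all R6 libraries lie above all V3 libraries, and for Glyma.03G168000 over Glyma.03G168200 only BR16 V3 replicate 2, at 3.23, lies among or above the R6 libraries.

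The loci next to the tandem pairs did not share one pattern. Glyma.03G168100, between the chromosome 3 members, was at 0.423 ± 0.361 CPM in BR16 V3 and 0.272 ± 0.195 CPM in BR16 R6 (SD, n = 3) and was not called. Glyma.03G167900 and Glyma.03G168300, on either side, were not called in any contrast with stage. Glyma.13G361800, next to Glyma.13G361900, was called higher at R6 in BR16 (0.0815 ± 0.0473 to 0.644 ± 0.295 CPM, log2 fold change 2.92, SE 0.69, edgeR adjusted p = 0.00529), and was called in GmNAC81-3 too (edgeR adjusted p = 0.0318), where its V3 libraries were at the floor. Glyma.13G362100, next to Glyma.13G362000, was not called.

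Across the 12 libraries, which share 4 groups and their scaling, log2 CPM of Glyma.14G127800 had a Pearson correlation of 0.98 with Glyma.03G168200 and of -0.98 with Glyma.13G361900. Glyma.15G012000 and Glyma.13G361900 had 0.82, and Glyma.13G361900 and its neighbour Glyma.13G362000 had 0.14. Among all tested loci, the most alike to Glyma.14G127800 was Glyma.07G262000 (r = 0.998) and to Glyma.07G033500 it was Glyma.03G101200 (r = 0.98). For Glyma.13G361900 it was Glyma.17G236400 (r = 0.99) and for Glyma.15G012000 it was Glyma.03G143700 (r = 0.99). The files do not pair these IDs with names. The 2 loci most alike to Glyma.03G168000 are named on the same gene lists, SRG1 (Glyma.01G056100, senescence-related gene 1, r = 0.91) and RNS1 (Glyma.20G036100, ribonuclease 1, r = 0.90). Glyma.03G168000 was at 4.72 CPM in BR16 V3 replicate 2 and at most at 0.542 CPM elsewhere. These correlations may rest largely on that library and were not computed without it.

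Other loci of ABA metabolism and signalling on the study's lists were set beside the transporters; they too were chosen on the V3 contrast. Both loci named NCED3, the enzyme that cleaves carotenoids in the committed step of ABA synthesis, were called lower at R6 in both genotypes. Glyma.15G250100 was at 51.6 ± 24.0 CPM in BR16 V3 and 0.873 ± 0.396 CPM in BR16 R6 (log2 fold change -5.87, SE 1.25, edgeR adjusted p = 0.00276), and in GmNAC81-3 its log2 fold change was -6.49 (SE 1.28, edgeR adjusted p = 0.00171). Glyma.08G176300 had log2 fold changes of -5.29 in BR16 (SE 1.22, edgeR adjusted p = 0.00449) and -5.87 in GmNAC81-3 (SE 1.24, edgeR adjusted p = 0.00251). The GmNAC81-3 V3 libraries spread widely, from 2.18 to 285 CPM for Glyma.15G250100 and from 0.462 to 61.9 CPM for Glyma.08G176300. For Glyma.08G176300 they overlapped the GmNAC81-3 R6 libraries, at 0.364 to 0.575 CPM.

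CYP707A1 (Glyma.01G153300), the hydroxylase that breaks ABA down, was not called in either genotype. OST1, the kinase that carries the ABA signal to guard cells, was called higher at R6 in GmNAC81-3 at both loci (log2 fold changes 2.43 for Glyma.11G038800 and 1.71 for Glyma.01G204200). In BR16 both were just under the fold limit, at 0.99 (edgeR adjusted p = 0.00792) and 0.97 (edgeR adjusted p = 0.0265). Their BR16 R6 libraries lay above the BR16 V3 libraries without overlap. ABCG11, a half-size transporter of the same subfamily that exports cuticle lipids in Arabidopsis, fell at both loci in both genotypes, with log2 fold changes of -3.85 (Glyma.13G043500) and -3.55 (Glyma.09G160000) in BR16. None of these 7 context loci was called between the genotypes at R6 or in the difference of the stage effects.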

How the data were processed

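Leaf RNA was sequenced by the authors as stranded TruSeq libraries with paired-end reads of 100 bp. The study's methods name Sickle, Bowtie 2, genome Wm82.a2.v1 and Rsubread, whereas the submitters' processing notes name HISAT2 2.1.0 and featureCounts, so which mapper made the deposited table is not settled. The values are the raw counts deposited by the authors, without normalization, for 84782 transcript models, with 1 column per library, and whether counting used strand is not given in the sources used here.

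Counts were summed per locus (52660 loci, 15054 with several models). In R 4.3.3 with edgeR 4.0.16, filterByExpr left 39443 loci, sizes were scaled with TMM, 4 group means were fitted to all 12 libraries, and contrasts were tested with the quasi-likelihood test and Benjamini-Hochberg adjustment over all tested loci. DESeq2 1.42.0 was an alternative. Ratios of members used log2 CPM with a prior count of 2. Low counts were mostly even (75.0 to 86.1% of counts below 50), so counts may exceed fragments, and 3 counts per library served as the floor (0.0266 to 0.122 CPM). On simulated BR16 stage data with 200 changed loci, edgeR recovered 76.0% at a log2 fold change of 2 with 7 false calls, and DESeq2 88.5% with 65. The changed loci were drawn above a minimum mean level, and in the measured BR16 stage contrast 34.7% of loci were called. These rates need not hold there or at lower levels.

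The members and lists were chosen with earlier results of these data known. Named were the 7 members, GmNAC81, the loci between and next to the tandem pairs, and the 2 loci most correlated with each member, of which the most alike of 4 members and both of Glyma.03G168000 are printed. Lists of the ABC family, ABA genes and leaf markers by reference name could not be matched to these IDs; ABA and rubisco activase loci from the study's lists replaced them after the files were seen. No sequences are shown, since none for these IDs was used here. Same-numbered V3 libraries deviated together across loci (correlations 0.404, 0.221 and 0.129). Differently numbered ones ran from -0.352 to 0.208, the highest being BR16 V3 replicate 2 with GmNAC81-3 V3 replicate 3. The labels give no pairing, and whether libraries were paired by number was not tested. Such pairing would bear on the contrast at V3 and on the difference of the stage effects. A differently numbered pair at R6, BR16 R6 replicate 1 with GmNAC81-3 R6 replicate 2, had a correlation of 0.415. At R6 the same-number correlations were -0.147, -0.366 and -0.119.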

Additional observations from a re-analysis of the deposited data

How the results depend on the processing

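The alternatives were DESeq2, DESeq2 size factors in edgeR, no expression filter, only the libraries of the groups compared (no such fit for the difference of the stage effects), a replicate block, an adjusted p of at most 0.01, and each library left out. Members called in BR16 stayed between 4 and 5 and in GmNAC81-3 between 3 and 5; with the replicate block, which pairs libraries by number, they were 4 and 4, and the block changed no call. At R6 the count was 0 throughout; Glyma.03G168200 did not pass the filter when the R6 groups were fitted alone. For the difference of the stage effects, DESeq2 gave 1, and leaving out single libraries 0 to 1. Pairs with a shifted ratio were 16 with a prior count of 0.5 and 15 to 18 without single libraries. Without single libraries, signs turned for Glyma.03G168000 between the BR16 stages (-3.08 to 0.064), at R6 (-1.14 to 0.14), at V3 (-2.87 to 0.16) and for the difference of the stage effects (-0.65 to 2.51), and at R6 for Glyma.14G127800 (-0.58 to 0.10) and Glyma.13G362000 (-0.28 to 0.039). With transcript models fitted singly, an alternative added once the data had been seen, model 2 of Glyma.03G168200 was at 1.73 at R6 and 0.93 for the difference of the stage effects, and model 3 of Glyma.13G361900 at -0.041 for the latter. Causes were not tested. Over all loci, the V3 contrast gave 1358 calls, 3128 with DESeq2, 857 with the block, 206 at 0.01, 14 with its groups alone and 151 to 2819 without single libraries. The R6 contrast gave 39, 224, 19, 15, 12 and 9 to 48, and the difference of the stage effects 28, 1045, 6, 1 (18 with DESeq2 size factors) and 1 to 292. With 3 libraries per group, levels of a few counts, as in Glyma.03G168000 and Glyma.03G168200, limit what could be seen.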
